A study of Danio rerio with 10 samples.

Results

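RNA from a zebrafish (Danio rerio) embryo library labelled 1000-cell was set against the 3 libraries of late cleavage, labelled 64-cell, 128-cell and 256-cell, and the genes that differed were followed into the sphere library. These 4 libraries are among the 10 of the series, the others being sperm, oocyte, 1-cell, 4-cell, 16-cell and sphere, a later blastula. Each stage is 1 library made with a TruSeq RNA v2 kit from total RNA taken up in TRIzol, sequenced as single reads on a HiSeq2000. The labels name no treatment or genotype for any group, and the sources used here do not give the strain, the clutch or the number of embryos in a library. The deposited values are RPKM, the reads of a gene divided by its length in kilobases and scaled for library depth. Of 32574 genes, 12914 reached at least 1 RPKM in at least 1 of the 4 libraries and were measured here, 10234 of them with a gene symbol. The change of a gene was the level at 1000-cell minus the highest of the 3 late cleavage libraries, or minus the lowest of them for a decrease, on the log2(RPKM + 1) scale. A gene counted as risen at a difference of 1 or more and as fallen at -1 or less. With 1 library for each stage no replicate check exists, and every interval below covers counting error only.

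A zebrafish egg carries RNA made by the mother, and the first cleavages run on that store while most genes of the embryo are silent. Around the mid-blastula transition the embryo begins to transcribe its own genome, a step opened by maternal transcription factors such as Nanog, Pou5f3 and Sox19b. The earliest zygotic genes are mostly short and encode transcription factors and signalling regulators, and zygotic products also help to clear the maternal store. The 1000-cell embryo lies at the onset of this transition and the sphere embryo after it. The comparison shows which transcripts stood higher or lower in RPKM at the start of the transition. RPKM is relative to library depth, so the amount of RNA per embryo was not measured. These 3 maternal activators were abundant in all 4 libraries. nanog stood at 1175, 1217 and 1080 RPKM in the 64-, 128- and 256-cell libraries and at 887 RPKM at 1000-cell. pou5f3 stood between 367 and 412 RPKM in the same 4 libraries, and sox19b between 303 and 361 RPKM.

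Few genes changed. At 1000-cell 37 of 12914 genes, 0.287%, rose, 15 of them with a symbol, and 4 genes, 0.031%, fell. By any amount, 6299 genes (48.8%) lay above the highest of the 3 late cleavage libraries and 2714 (21.0%) below the lowest, with a median change of 0.15 against the median of the 3. That median moved by -0.19 to -0.04 when the 4 libraries were scaled by median ratios, and the shares above and below then became 29.9% and 37.8%. The direction of small changes thus depended on the scaling, and 32 genes rose and 8 fell under it. Across measured genes the 1000-cell library correlated most with its nearest neighbour, with Pearson's r of 0.946 with 64-cell, 0.973 with 128-cell and 0.989 with 256-cell. Genes are not independent replicates, so these values describe likeness between libraries. The counts rest on the 256-cell library more than on the other 2, since without it 411 genes rose and 59 fell.

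**Figure D1:**
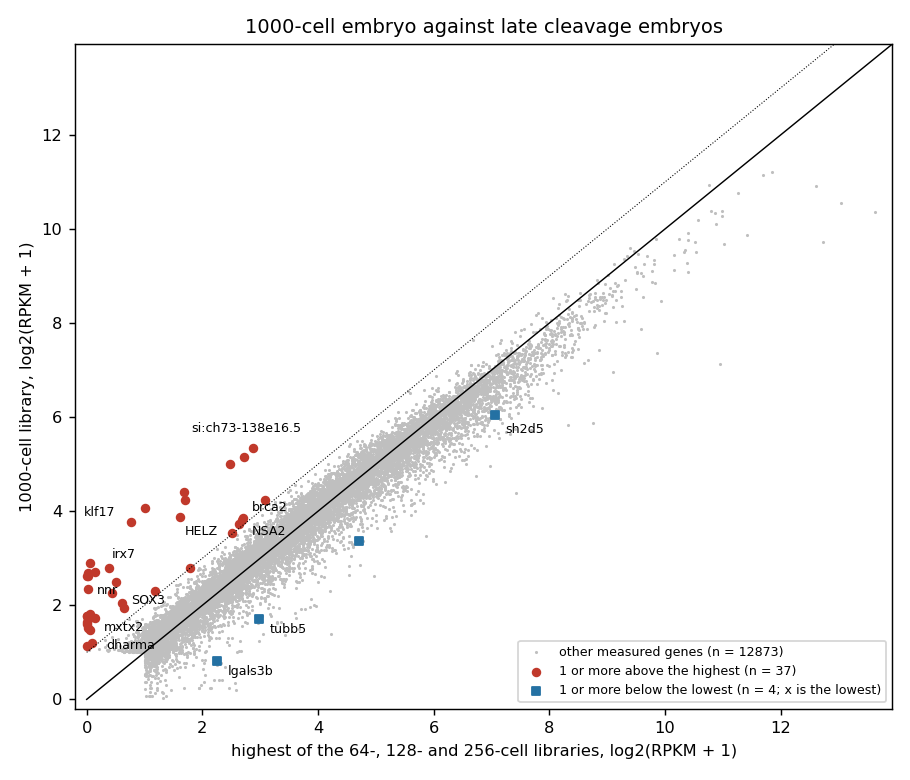
Each point is 1 of 12914 genes, with the highest of the 64-, 128- and 256-cell libraries on the x axis and the 1000-cell library on the y axis, both as log2(RPKM + 1). The solid line marks equal levels and the dotted line a difference of 1, and for the 4 fallen genes (squares) x is the lowest of the 3 libraries. The 37 risen genes (red) lie at the low end of the x axis, and most other genes follow the solid line.

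The plot of 1000-cell against late cleavage levels shows where the risen genes started. In the highest late cleavage library 15 of the 37 lay below 0.1 RPKM, 8 lay between 0.1 and 1 RPKM and 14 at 1 RPKM or more. The 23 below 1 RPKM in all 3 libraries were measured only because the 1000-cell library lifted them over the minimum, so they had to be higher there. In all, 289 measured genes entered in that way. At 1000-cell the risen genes stood between 1.2 and 39.7 RPKM, with a median of 5.19 RPKM. Their summed level went from 30.2, 52.5 and 51.5 RPKM in the 3 late cleavage libraries to 337 RPKM at 1000-cell, which is 0.085% of the RPKM total of that library. Of the 37, 256-cell was the highest of the 3 in 21 genes, against 6598 of all 12914 measured genes. Of the risen genes, 5 were listed at 0 in all 3. In 18 genes, 48.6%, the level climbed at each step from 64-cell to 1000-cell, a smaller share than the 65.5% of all genes that lay above the highest late cleavage library, where the last step is fixed by the choice as well.

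Among the risen genes with a symbol, the largest rises were those of the transcription factors klf17 and irx7. klf17, a Krüppel-like zinc finger factor, stood at 0.367, 0.512 and 0.7 RPKM in the 64-, 128- and 256-cell libraries, at 12.7 RPKM at 1000-cell and at 89.5 RPKM in sphere. Its level at 1000-cell was 18.2 times the highest late cleavage level (95% counting interval 14.3 to 23.5), far outside the range of the 3 libraries. irx7, an Iroquois homeobox factor, stood at 0.0117, 0.0359 and 0.111 RPKM in late cleavage, at 5.51 RPKM at 1000-cell and at 40.9 RPKM in sphere. The rise of irx7 was 49.6-fold (25 to 116), from 8 reads in the 256-cell library to 465 reads. her5, a repressor of the Hairy and Enhancer of split family, stood at 0.351, 0.294 and 0.356 RPKM, then at 3.77 RPKM at 1000-cell and at 125 RPKM in sphere. The 3 late cleavage values of her5 were nearly level, and the 1000-cell value was 10.6-fold (7.25 to 16.1) above the highest of them.

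SOX3, a SoxB1 factor of the same subfamily as the maternal Sox19b, stood at 0.387, 0.522 and 0.376 RPKM in late cleavage, at 3.16 RPKM at 1000-cell and at 60.6 RPKM in sphere. The 1000-cell level of SOX3 was 6.04-fold (4.78 to 7.72) above its highest late cleavage level. mxtx2, a Mix-type homeobox factor that acts in the yolk syncytial layer, stood at 0.0209, 0.0241 and 0.0373 RPKM, at 1.79 RPKM at 1000-cell and at 62.6 RPKM in sphere. dharma, a homeobox factor of the dorsal organizer that is switched on by maternal beta-catenin, was listed at 0 in the 64-cell library and stood at 0.014 and 0.0648 RPKM in the 128- and 256-cell libraries. dharma then reached 1.29 RPKM at 1000-cell, from 70 reads, and 10.2 RPKM in sphere. The counts behind dharma were small, 3 reads in the 256-cell library, and its 19.9-fold rise has an interval of 6.54 to 98.9. In these 6 factors no late cleavage library came near the 1000-cell value.

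The other named risers were of several kinds. nnr, one of the members of the list of first zygotic genes, had 1 read in the 128-cell library and none in the 64- and 256-cell libraries, and 186 reads or 4.12 RPKM at 1000-cell. nnr then reached 422 RPKM in sphere, 103-fold (88.8 to 119) above 1000-cell, the largest step of any risen gene. GADD45B (ENSDARG00000013576), a member of the growth arrest and DNA damage inducible family, stood at 0.00934, 0.223 and 0.3 RPKM, at 5.91 RPKM at 1000-cell and at 67.6 RPKM in sphere. A second gene with that symbol (ENSDARG00000027744) stood at 0.12, 0.276 and 0.131 RPKM in late cleavage and at 1.06 RPKM at 1000-cell, and did not pass the rule. zgc:195170 went from at most 0.0419 RPKM, 2 reads in the 256-cell library, to 2.54 RPKM at 1000-cell and 91.5 RPKM in sphere.

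A pair of genes whose symbols carry the name of the same clone, ENSDARG00000040141 and ENSDARG00000095745, gave the highest levels among the named risers. ENSDARG00000040141 stood at 3.57, 6.35 and 4.43 RPKM in late cleavage, at 39.7 RPKM at 1000-cell and at 800 RPKM in sphere. ENSDARG00000095745 stood at 2.35, 4.55 and 2.92 RPKM, at 30.9 RPKM at 1000-cell and at 582 RPKM in sphere. In both, the 128-cell library was the highest of the 3, and the 1000-cell level was 6.25-fold (5.83 to 6.72) and 6.79-fold (6.09 to 7.58) above it. Genes named from 1 clone may share reads, and the sources used here do not say how reads with several matches were counted, so the 2 values are uncertain as separate genes. The unnamed ENSDARG00000077712 moved alike, with 3.18, 5.60 and 3.33 RPKM in late cleavage, 34.5 RPKM at 1000-cell and 593 RPKM in sphere.

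**Figure D2:**
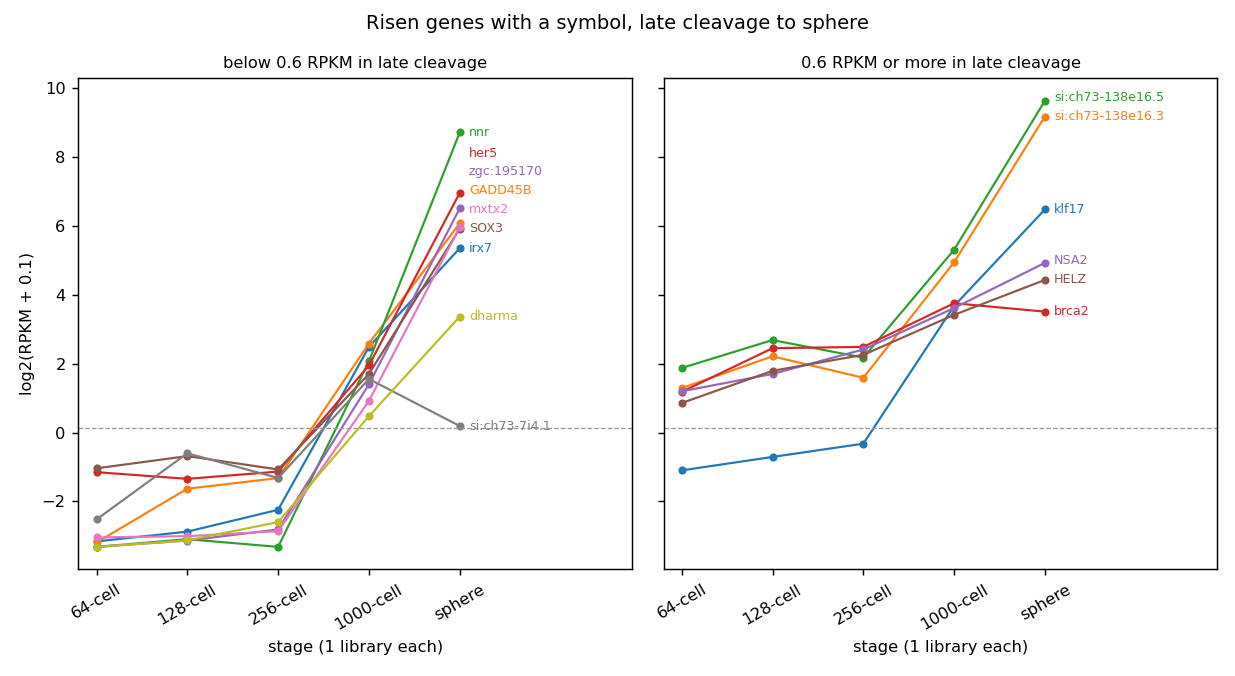
Level of the 15 risen genes with a symbol in the 64-, 128-, 256-cell, 1000-cell and sphere libraries, as log2(RPKM + 0.1), with the genes split by their highest late cleavage level. The dashed line marks 1 RPKM and each point is 1 library. Of the 15 lines 13 continue upward into sphere, and those of si:ch73-7i4.1 and brca2 turn down.

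The lines of the named risers start at different levels. brca2, NSA2 and HELZ already had RNA in late cleavage and rose by smaller folds. brca2, a factor of DNA repair by homologous recombination, stood at 2.17, 5.37 and 5.52 RPKM in late cleavage, at 13.4 RPKM at 1000-cell and at 11.3 RPKM in sphere. NSA2, a ribosome biogenesis factor, stood at 2.2, 3.16 and 5.23 RPKM, at 12.2 RPKM at 1000-cell and at 30.5 RPKM in sphere. HELZ, a helicase with a zinc finger, stood at 1.71, 3.37 and 4.69 RPKM, at 10.6 RPKM at 1000-cell and at 21.6 RPKM in sphere. The level climbed at each step in these 3 genes, by 2.43-fold, 2.33-fold and 2.26-fold at the last. Under median ratio scaling NSA2 and HELZ no longer passed, at 0.96 and 0.91 on the log2(RPKM + 1) scale, and brca2 was at 1.01. HELZ was the 1 risen gene with an earlier embryo library at or above the 1000-cell level, 10.9 RPKM at 16-cell. si:ch73-7i4.1 stood at 0.0737, 0.559 and 0.3 RPKM in late cleavage and at 2.84 RPKM at 1000-cell, and was down at 1.04 RPKM in sphere.

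The 22 risen genes without a symbol stood between 1.2 and 34.5 RPKM at 1000-cell, and all 22 were higher in sphere, where their median was 103 RPKM. ENSDARG00000091017 had the largest rise of all 37, 3.06 on the log2(RPKM + 1) scale, from 0.381, 1.01 and 0.991 RPKM to 15.8 RPKM, and reached 228 RPKM in sphere. ENSDARG00000092265 had no read in any of the 3 late cleavage libraries and 225 reads, 5.18 RPKM, at 1000-cell, at least 64.0-fold more than a floor of 3 reads in the 256-cell library. At the weak end, ENSDARG00000088395 and ENSDARG00000089867 are 81 and 82 bases long and rest on 14 and 7 reads at 1000-cell. The median length of the 37 risen genes was 1065 bases against 2113 bases for all measured genes, and 89.2% of them were shorter than the latter. RPKM is divided by length, so a short gene reaches 1 RPKM on fewer reads, and the part of length in this count was not tested.

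With limma, taking the 3 late cleavage libraries as draws around 1 level and assuming that the lone 1000-cell library varies like them, 21 of 12914 genes (0.163%) were higher at 1000-cell at an adjusted p under 0.05. All 21 were among the 37 risen genes, and 19 of them lay below 1 RPKM in all 3 late cleavage libraries and so were measured through 1000-cell alone. The fit uses the same 4 libraries as the rule and adds no independent values. Of the 21, 7 had a symbol, namely irx7, nnr, klf17, zgc:195170, GADD45B (ENSDARG00000013576), her5 and mxtx2. The difference was 2.63 for irx7, 3.17 for klf17 and 1.44 for mxtx2 on the log2(RPKM + 1) scale. SOX3 did not pass, with a difference of 1.54. Each of these genes lay below 1 RPKM in all 3 late cleavage libraries and so was measured through 1000-cell alone. The calls among them are therefore no separate support for a rise. No gene was called lower. The calls depended on the settings: limma called 0 genes with a pseudocount of 0.1 and 0 among genes of at least 5 RPKM, and without the 256-cell library it called 1753 higher and 574 lower.

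A pseudocount of 1 hides changes of genes that start near 0, so the comparison was also made with 0.1 added. Then 84 genes (0.65%) rose and 11 (0.0852%) fell, including all 37 and all 4 from before. A smaller pseudocount widens every difference, so those genes had to be included. Among the 47 added risers was DUSP6, a phosphatase that limits ERK signalling, with 0.0233, 0.018 and 0.0333 RPKM in late cleavage, 1.07 RPKM at 1000-cell and 21.6 RPKM in sphere. grhl3, a grainyhead-like factor of epithelial differentiation, stood at 0.115, 0.0671 and 0.164 RPKM, at 1.11 RPKM at 1000-cell and at 94.1 RPKM in sphere. her11, a relative of her5 that lies next to it in the RefSeq gene order of GRCz12tu, stood at 0.203, 0.183 and 0.354 RPKM, at 1.51 RPKM at 1000-cell and at 38.4 RPKM in sphere. These 3 regulators began low and went on up.

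wnt11f2, a Wnt ligand of gastrulation movements, stood at 0.039, 0.0951 and 0.302 RPKM in late cleavage, at 1.08 RPKM at 1000-cell and at 29.8 RPKM in sphere. drll.3 stood at 0.143, 0.279 and 0.258 RPKM, at 1.24 RPKM at 1000-cell and at 76.4 RPKM in sphere. The added risers were a mixed set: 26 of the 47 were higher in sphere than at 1000-cell and 21 lower, and 24 of the 47 stood as high in sperm as at 1000-cell or higher, as did 36.7% of all measured genes. sox21a, a SoxB2 factor, was among those that went down, from 2.9 RPKM at 1000-cell to 2.05 RPKM in sphere.

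The genes next to the threshold give its scale. Just inside it lay ENSDARG00000088946 at 1.12, dharma at 1.11, NSA2 at 1.08, HELZ at 1.03 and ENSDARG00000074366 at 1.00 on the log2(RPKM + 1) scale. Just outside lay DUSP6 at 1.00, short of the threshold before rounding, dab2 at 1.00, likewise short of it, IGLON5 and ATP5F1B at 0.97 and DHX37 at 0.97. ATP5F1B, a subunit of the mitochondrial ATP synthase, stood at 53.7, 78.6 and 101 RPKM in late cleavage, at 199 RPKM at 1000-cell and at 203 RPKM in sphere. trim35-29, a member of the tripartite motif family, was lower again in sphere, with 17.1, 37.2 and 47 RPKM in late cleavage, 90.7 RPKM at 1000-cell and 45.2 RPKM in sphere. At a difference of 0.5 or more 509 genes (3.94%) lay above late cleavage, and 364 of these, 71.5%, had climbed at each step from 64-cell to 1000-cell, against 65.5% of all genes above the highest late cleavage library.

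Followed into sphere, the risen genes went on up. Of the 37, 35 were higher in sphere than at 1000-cell, 94.6% against 42.3% of all measured genes, and 32 were higher by 1 or more, 86.5% against 2.39%. The rise into sphere was 4 or more on the log2(RPKM + 1) scale in 19 genes, with a median of 4.0, while the median over all measured genes was -0.08. The median level of the 37 was 86.3 RPKM in sphere, and their sum was 5692 RPKM, 1.43% of the RPKM total of that library. Both comparisons share the 1000-cell library. Genes that rose from below 0.1 RPKM reached a median of 79.1 RPKM in sphere, those from 0.1 to 1 RPKM a median of 64.1 RPKM, and those from 1 RPKM or more a median of 196 RPKM.

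**Figure D3:**
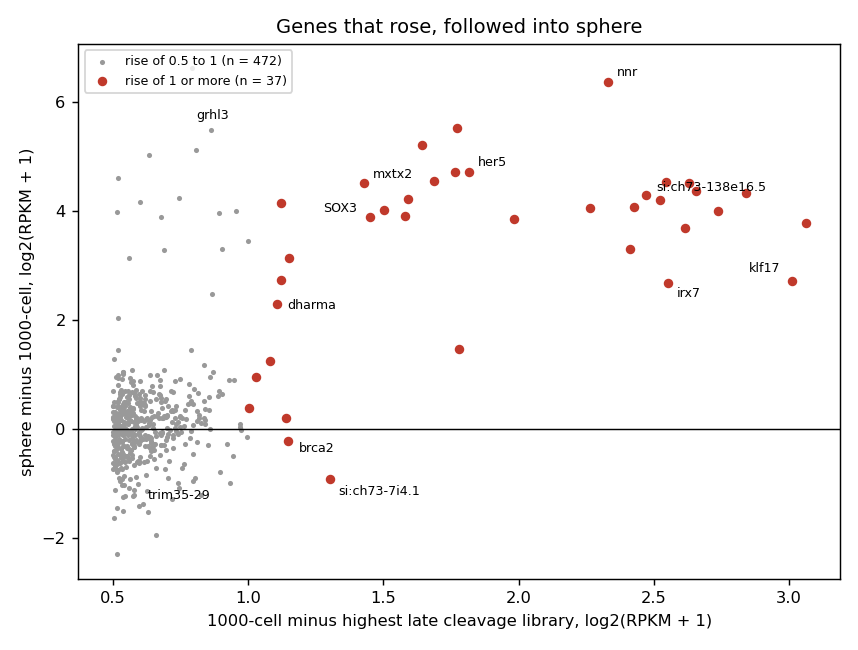
The rise at 1000-cell over the highest late cleavage library (x axis) against the further change into sphere (y axis), both on the log2(RPKM + 1) scale, for the 37 genes that rose by 1 or more (red) and the 472 that rose by 0.5 to 1 (grey). All but 2 of the red points lie above 0 and 19 lie at 4 or above, whereas the grey points spread around 0.

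The smaller rises in the plot of further change behaved differently. Of the 509 genes at 0.5 or more, which include the 37, 297 (58.3%) were higher in sphere than at 1000-cell. Of these 297, 35 were among the 37. Higher by 1 or more were 59 (11.6%), of which 32 were among the 37. Looking back from sphere, 1416 genes stood there by 1 or more above their highest late cleavage level, and 35 of these, 2.47%, had already risen by 1 at 1000-cell. Of the 158 genes that stood higher by 4 or more in sphere, 28, or 17.72%, had risen at 1000-cell. By some amount 135, or 85.4%, already lay above late cleavage. That share was 48.8% over measured genes (29.9% under median ratio scaling) and 44.5% over genes above 0 in any of the 4 libraries. grhl3 was one of these, at 94.1 RPKM in sphere against at most 0.164 RPKM in late cleavage. Its level in sphere was 84.5-fold (74.4 to 96.4) that at 1000-cell. These 2 groups of genes were picked on the sphere and late cleavage libraries, without the 1000-cell library and without the minimum of 1 RPKM. The highest late cleavage level enters both their choice and their shares at 1000-cell, so a low level there favours both. Their shares are at the deposited scaling, so the 29.9% has no counterpart among them. Of the 1416 genes 31.0%, and of the 158 genes 33.5%, stood at 1 RPKM or more at 1000-cell. A gene below 1 RPKM there cannot rise by 1 with 1 added, which limits the counts of risen genes.

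Genes with no read in late cleavage were counted by their reads at 1000-cell. The libraries before late cleavage were not asked to be empty, and ENSDARG00000092265 stood at 0.331 RPKM in sperm. The 3 late cleavage libraries, scaled to 226533038 reads in all, held no read of 8225 genes, and 525 of these had at least 1 read at 1000-cell. In 21 genes there were 10 reads or more, and all 21 were higher in sphere, a share not given here for the rest of the 525. Among the 21 were the zinc finger genes znf1127 with 49 reads, znf1050 with 37 reads and znf1089 with 30 reads. Their levels in sphere were 45.0, 23.3 and 16.4 RPKM. asb11, an ankyrin repeat and SOCS box protein, had 11 reads at 1000-cell, 0.107 RPKM, and 137 RPKM in sphere. tbx16, a T-box factor of mesoderm, had 10 reads, 0.0284 RPKM, and 53.8 RPKM in sphere. A gene with 10 reads was at least 2.85-fold above the floor of 3 reads.

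Only 4 genes fell, and none of them by 2 or more. lgals3b, a galectin, stood at 5.16, 3.76 and 4.01 RPKM in late cleavage, at 0.768 RPKM at 1000-cell and at 3.49 RPKM in sphere. Its lowest late cleavage level was 4.89-fold (3.92 to 6.16) above 1000-cell, and the level in sphere was higher than at 1000-cell but still under that lowest level. tubb5, a beta-tubulin, stood at 6.84, 7.57 and 7.43 RPKM, at 2.29 RPKM at 1000-cell and at 7.07 RPKM in sphere. ENSDARG00000086887 stood at 25.2, 34.6 and 30.8 RPKM, at 9.38 RPKM at 1000-cell and at 15.9 RPKM in sphere. sh2d5, a protein with an SH2 domain, was the 1 that went on down, with 151, 146 and 132 RPKM in late cleavage, 65.4 RPKM at 1000-cell and 5.99 RPKM in sphere. lgals3b, tubb5 and ENSDARG00000086887 were thus lower at 1000-cell than in both neighbouring stages, and only sh2d5 declined at each step. Against all 6 embryo libraries from 1-cell to 256-cell only lgals3b kept its fall, and tubb5 and ENSDARG00000086887 had an earlier embryo library below their 1000-cell level.

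At the smaller difference of 0.5 the decreases were mixed, and a decline at each step was frequent. A total of 72 genes (0.558%), the 4 fallen ones included, lay 0.5 or more below late cleavage. Of these, 54 (75.0%) declined at each step from 64-cell to 1000-cell, against 50.3% of all genes below the lowest late cleavage library. The last of these steps is fixed by the choice of genes. Of the 72, 65 (90.3%) were higher in the oocyte than at 1000-cell, against 3502 of all 12914 measured genes. The 72 were chosen for a low 1000-cell level, which by itself favours a higher level in the oocyte. Lower still in sphere were 48 (66.7%), against 57.7% of all measured genes. By 1 or more, 17 of the 72 were lower in sphere, against 5.66% of all measured genes. CEP20 and usf1l were instead higher again in sphere, at 45.5 and 20.9 RPKM against 33.7 and 16.3 RPKM at 1000-cell. DNMT1, the maintenance DNA methyltransferase, stood at 768, 555 and 367 RPKM in late cleavage, at 232 RPKM at 1000-cell and at 82.6 RPKM in sphere. DAZL, an RNA-binding protein of germ cells, stood at 64.5, 44.2 and 43.8 RPKM, at 23.0 RPKM at 1000-cell and at 9.39 RPKM in sphere. CPOX, an enzyme of heme synthesis, stood at 105, 68.4 and 49.2 RPKM, at 25.8 RPKM at 1000-cell and at 13.1 RPKM in sphere. In these 3 genes every library from 128-cell to sphere was lower than the one before it.

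lemd1, which encodes a LEM domain protein, stood at 283, 234 and 171 RPKM in late cleavage, at 90.4 RPKM at 1000-cell and at 55.2 RPKM in sphere. GAS6, a ligand of TAM receptors, stood at 17.5, 10.2 and 7.67 RPKM, at 3.93 RPKM at 1000-cell and at 3.64 RPKM in sphere. bcl3, a member of the I-kappa-B family, was an exception in that the oocyte held little of it, 0.374 RPKM. bcl3 stood at 3.26, 3.03 and 4.41 RPKM in late cleavage, at 1.48 RPKM at 1000-cell and at 1.11 RPKM in sphere. Just outside the threshold lay ENSDARG00000044009 and ENSDARG00000091096 at -0.94 and lemd1 at -0.92. Of the 542 genes that stood by 1 or more below late cleavage in sphere, 1 had fallen at 1000-cell. By some amount 328 of them, or 60.5%, lay below late cleavage, against 21.0% of all measured genes. The lowest late cleavage level enters both the choice of the 542 and this share, so a high level there favours both. The 60.5% is at the deposited scaling, and no share under median ratio scaling is given for the 542 (37.8% over all measured genes).

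**Figure D4:**
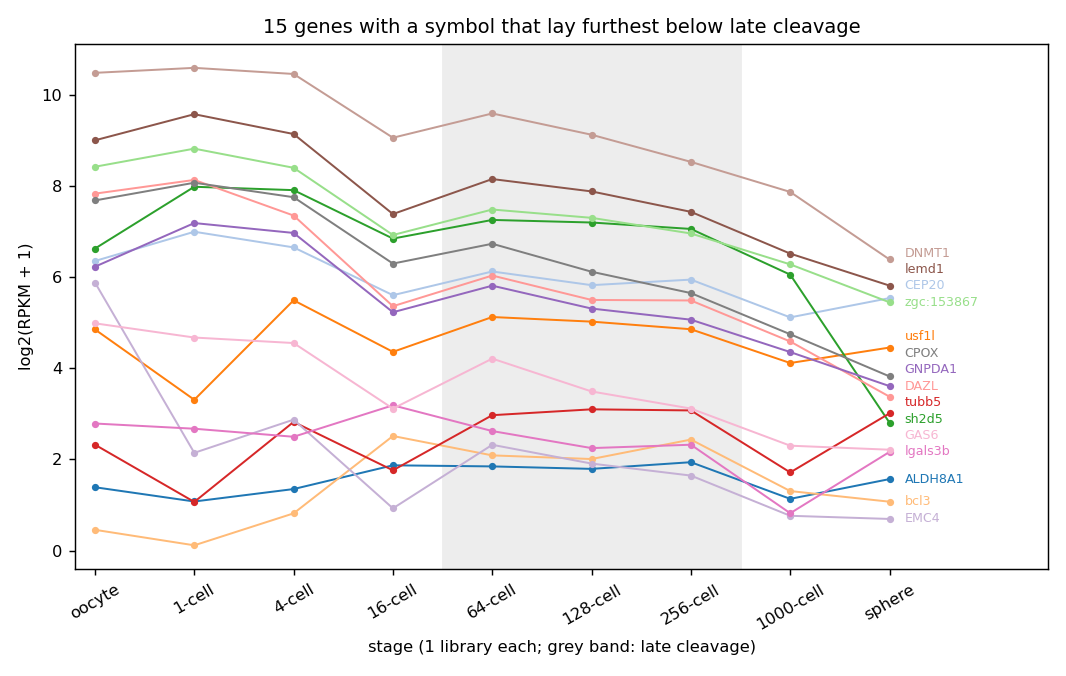
Level from oocyte to sphere of the 15 genes with a symbol that lay furthest below late cleavage at 1000-cell, as log2(RPKM + 1), 1 library for each stage. The grey band holds the 3 late cleavage libraries. DNMT1, lemd1, CPOX, DAZL and GNPDA1 step down from 64-cell to sphere, while tubb5 and lgals3b dip at 1000-cell and are higher again in sphere.

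The plot of decreases shows both single dips and longer declines. The list of first zygotic transcription factors and signals was the group with the most risers. Its members were chosen with earlier results of these data known, so the counts are a description and no test. The list matched 47 genes, of which 15 were measured. Of the 15, 6 rose (klf17, irx7, nnr, her5, SOX3 and mxtx2) and none fell. Over all measured genes 0.287% rose. Of the 15, 14 lay above the highest late cleavage library, against 48.8% of all measured genes, and the median change was 1.01. Under median ratio scaling, where fewer reached the minimum, 9 of 13 lay above and the median was 0.85. Of the 15, 9 were measured through the 1000-cell library alone and so had to lie above late cleavage. These counts thus describe the genes that passed the minimum and not the list. Of the 32 members below the minimum, 23 lay above late cleavage by some amount and 15 reached 10 RPKM or more in sphere. sox19a, a SoxB1 factor, missed the minimum narrowly, with 0.0447, 0.0295 and 0.0456 RPKM in late cleavage, 0.953 RPKM at 1000-cell and 69.4 RPKM in sphere. inka1a stood at 0.675 RPKM at 1000-cell, from at most 0.0163 RPKM, and at 106 RPKM in sphere. In contrast ZIC2 (ENSDARG00000037178), a zinc finger factor, stood at 1.16 RPKM at 256-cell and 1.25 RPKM at 1000-cell, and reached 90.1 RPKM in sphere.

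**Figure D5:**
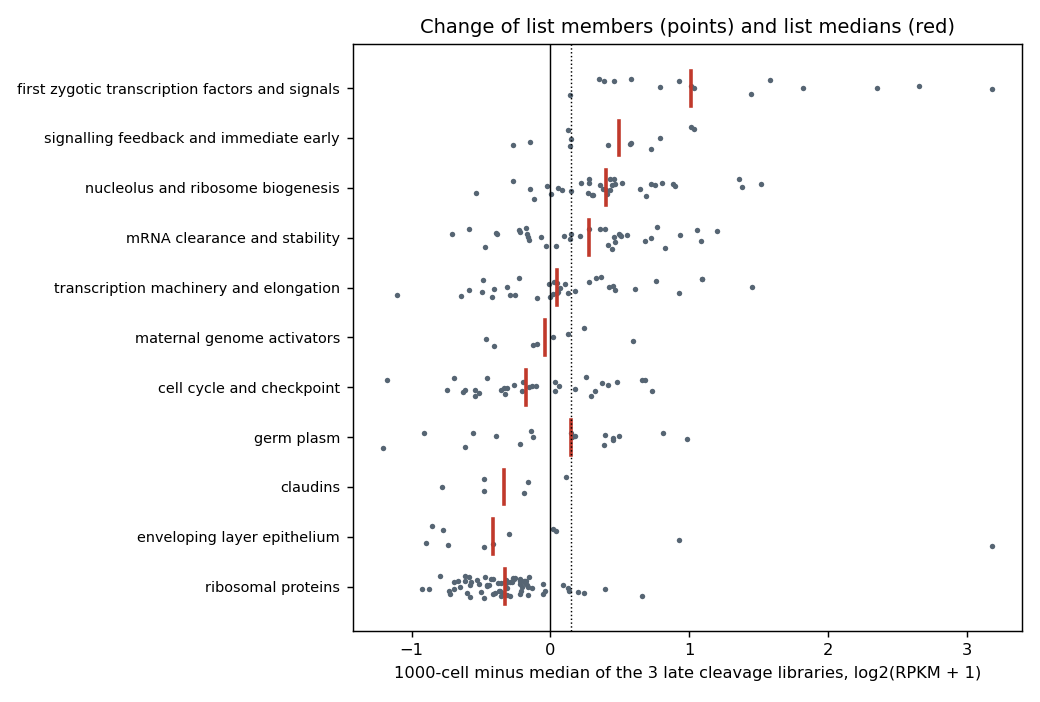
Change of the measured members of 11 gene lists, as the 1000-cell level minus the median of the 3 late cleavage libraries on the log2(RPKM + 1) scale. Points are genes, red bars are list medians, the solid line is 0 and the dotted line is the median of all measured genes, 0.15. The first zygotic genes reach furthest to the right, with a median of 1.01, and most ribosomal protein genes lie left of 0, with a median of -0.33.

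Signalling lists held few changed genes, but over all measured genes only 0.287% rose and 0.031% fell. Counts of none in lists this small are therefore no result about signalling genes. Of 11 measured members of the Nodal list none rose or fell, and the ligand ndr1 stood at 0.157, 0.335 and 0.528 RPKM in late cleavage, at 1.11 RPKM at 1000-cell and at 7.86 RPKM in sphere. In the list of Wnt signalling and the dorsal axis dharma was the 1 riser of 8 measured members. dharma was measured through the 1000-cell library alone and so had to lie above late cleavage. ctnnb2, a maternal beta-catenin, stood at 979, 774 and 425 RPKM in late cleavage and at 351 RPKM at 1000-cell. No member of the BMP list (6 measured) or of the FGF list (9 measured) passed the rule in either direction. The list of signalling feedback and immediate early genes had 12 measured members, of which 8 lay above late cleavage and none rose. Their median change was 0.49. Of the 12, 2 were measured through the 1000-cell library alone and so had to lie above late cleavage. Under median ratio scaling 6 of 11 lay above, with a median of 0.26. Over all measured genes 48.8% lay above, or 29.9% under that scaling.

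The 2 lists for the protein synthesis machinery differed in direction at the deposited scaling. Of 35 measured genes of the nucleolus and ribosome biogenesis, 24 lay above late cleavage, against 48.8% of all measured genes, with a median change of 0.40. Under median ratio scaling 15 of the 35 lay above and 8 below, against 29.9% and 37.8% of all measured genes, with a median of 0.20. None of the 35 rose by the rule, and their summed level was 1876, 2192 and 2665 RPKM in late cleavage, 2720 RPKM at 1000-cell and 3355 RPKM in sphere. pprc1, a coactivator of the PGC-1 family, stood at 15.04, 32.4 and 56.0 RPKM in late cleavage, at 94.8 RPKM at 1000-cell and at 112 RPKM in sphere. WDR43, a factor of small subunit processing, stood at 12.7, 23.2 and 39.3 RPKM, at 62.2 RPKM at 1000-cell and at 100.6 RPKM in sphere. Of 70 ribosomal protein genes 49 lay below late cleavage, against 21.0% of all measured genes, and 3 above, with a median change of -0.33, or -0.51 with 60 below under median ratio scaling. Their summed level was 11476, 9316 and 7719 RPKM in late cleavage, 7014 RPKM at 1000-cell and 7636 RPKM in sphere, a decline at each step up to 1000-cell and none beyond it.

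The cell cycle list had a median change of -0.18, with 18 of 32 measured members below late cleavage and none past the rule. Under median ratio scaling the median was -0.47, with 21 of 31 below. Over all measured genes 21.0% lay below, or 37.8% under that scaling. CCNB1, the mitotic cyclin B, stood at 1460, 1370 and 1162 RPKM in late cleavage, at 846 RPKM at 1000-cell and at 598 RPKM in sphere. In the list of mRNA clearance factors 22 of 37 lay above late cleavage and 8 below, and none passed the rule. Under median ratio scaling 16 lay above and 13 below. The shares over all measured genes were 48.8% above and 21.0% below, or 29.9% and 37.8% under that scaling. YTHDF2, a reader of methylated adenosine in maternal mRNA, stood at 20.7, 27.7 and 32.9 RPKM, at 46.4 RPKM at 1000-cell and at 69.1 RPKM in sphere. CNOT6, a deadenylase subunit, stood at 30.1, 45.4 and 61.9 RPKM, at 97.5 RPKM at 1000-cell and at 104 RPKM in sphere. PAN3, a subunit of a deadenylase, went the other way, with 49.5, 28.5 and 18.5 RPKM in late cleavage and 17.0 RPKM at 1000-cell.

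Markers of particular cells differed in level, and those of blood and muscle were low. All 18 matched germ plasm genes were measured. Their median was 42.3 RPKM at 1000-cell, against 11.7 RPKM over all measured genes. Of 24 matched genes of the enveloping layer, the outer epithelium of the blastula, 11 were measured. Another 2 were at 0 in all 4 libraries. klf17 was the 1 that rose, and 5 measured members lay below late cleavage. Over all measured genes 0.287% rose and 21.0% lay below. Under median ratio scaling 8 of 10 lay below, against 37.8% of all measured genes. klf17 was measured through the 1000-cell library alone and so had to lie above late cleavage. The summed level of the list was 1300 RPKM, 1412 RPKM and 1040 RPKM in late cleavage and 831 RPKM at 1000-cell, most of it from epcam, an adhesion molecule at 725 RPKM. The keratin krt5 stood at 3.11, 13.7 and 6.95 RPKM and then at 3.41 RPKM, and krt91 at 2.87, 12.6 and 5.50 RPKM and then at 2.81 RPKM. These 2 keratins peaked in the 128-cell library, which sets the upper bound for them, and the part of that library in the list was not tested. Of 12 matched genes of the yolk syncytial layer 3 were measured and mxtx2 alone rose. It too was measured only through the 1000-cell library. None of 6 blood genes and 1 of 11 muscle genes reached 1 RPKM, with summed levels of 0.113 to 0.175 RPKM and of 2.09 to 2.81 RPKM over the 4 libraries. Of 13 genes of follicle and steroidogenic cells 4 were measured, led by CYP17A1 at 42.7 to 52.6 RPKM and CYP11A1 at 39.3 to 47.7 RPKM. In whole embryos, fewer cells of a type and less RNA in each cell cannot be told apart.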

How the data were processed

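The authors deposited 1 table of RPKM values (reads per kilobase, scaled for library depth) for 10 libraries. Per the submitters' processing notes, TopHat2 2.0.9 and the genome build Zv9 were used. The sources used here do not give the counting tool, annotation release or strand setting, so overlapping and antisense genes cannot be separated. The comparison used the 64-, 128-, 256- and 1000-cell libraries and genes with at least 1 RPKM in any of them. Differences were taken on log2(RPKM + 1), and with 0.1 added, and called at 1.

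limma 3.58.1 (lmFit, eBayes with trend, 2 residual degrees of freedom, prior 3.54) was run on log2(RPKM + 1) with Benjamini-Hochberg adjustment over 12914 genes. On simulated data it called 50% of genes changed by 2, 73% of those changed by 3 and 0 unchanged genes. The simulated libraries were independent draws around 1 level for each gene, with the spreads shuffled between genes. They held no trend over the stages, so these shares hold for that setting only. The p-values of limma measure only the spread between libraries of neighbouring stages.

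Whole reads and gene lengths were worked back from the RPKM for 26493 genes, with 99.2% of values above 0 whole within 0.02 reads. The reads scaled to were 72125930 (64-cell), 93744349 (128-cell), 60662759 (256-cell), 71051833 (1000-cell) and 80204068 (sphere), at which 3 reads in 1 kilobase are 0.032 to 0.0495 RPKM. Checked on simulated data, 99.8% of 1500 genes were recovered. Intervals of folds are 95% Clopper-Pearson intervals (exact) from these reads. A gene without reads in late cleavage was given a lower bound, from 3 reads in the 256-cell library.

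Genes were matched to 26 lists by symbol (706 symbols, 568 genes). The members and lists were chosen with earlier results of these data known. The genes named were drawn from the 25 largest rises and 15 largest falls with a symbol of 1 gene only, the 15 largest further rises with 0.1 added, list members past the rule and the genes next to the threshold. Not every gene of these sets is described. Other genes, among them those without a symbol, list members short of the rule and genes with no read in late cleavage, were chosen after their values were seen. Calculations used Python 3.11.15, numpy 2.4.6, pandas 2.3.3, scipy 1.17.1 and R 4.3.3.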

Additional observations from a re-analysis of the deposited data

How the results depend on the processing

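Each alternative changed 1 choice. With a pseudocount of 0.1, 84 genes rose and 11 fell, and with 5 added 14 rose and 1 fell. With a minimum of 5 RPKM 20 rose, and under median ratio scaling 8 fell. Against the median of the 3 late cleavage libraries 420 rose and 62 fell. At a difference of 2 the counts were 15 and 0, and at 0.5 they were 509 and 72. Alternatives added after seeing the data gave 1 fallen gene against the lowest of the 6 embryo libraries from 1-cell to 256-cell, 33 risen genes against the highest of them, and 15 risen genes among those with a symbol. Leaving out 1 late cleavage library gave 38 to 411 risen and 5 to 59 fallen genes, the most without 256-cell. All 37 and all 4 were among them each time, which the rule fixes. Leaving out a library can only lower the highest level or raise the lowest. limma called 0 genes higher with 0.1 added, 145 with no filter, 0 from 5 RPKM and 25 to 1753 with 1 library left out, and 0 to 574 lower, again the most without 256-cell. Higher still in sphere were 61 of 84 risers with 0.1 added, 14 of 14 with 5 added and 19 of 20 from 5 RPKM. Lower still in sphere were 3 of 11 fallen genes with 0.1 added, 0 of 1 with 5 added and 4 of 8 under median ratio scaling. The cause of these shifts was not tested. Of 62 named genes, 33 had a value from 5 RPKM and 59 under median ratio scaling. All 62 had one under the other settings (pseudocounts, no filter, median, 1 library left out). No call reversed in these settings, of which only median ratio scaling could have reversed one. Against the 6 embryo libraries HELZ (-0.034), tubb5 (0.65) and ENSDARG00000086887 (3.38) reversed. No paired analysis was possible because each stage has 1 library. The promoter motif search was not run, since no promoter sequence was used here. The depth limits the counts of genes starting near 0, where 3 reads in 1 kilobase are 0.0495 RPKM at 256-cell.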
